A study of Homo sapiens with 2 samples.

Results

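The H/ACA box snoRNAs described here are the genes that the deposited count table lists with the biotype snoRNA and a name starting with SNORA, and whose counts over both libraries sum to at least 20. The genes, chosen by their summed count, numbered 42 of 213 rows with such a name, in a table of 61554 rows. The rule used the summed count and not the difference between the libraries. SNORA47 lay just inside it, with 14 counts in the library with reporter and 6 in that lacking it, and SNORA24B was the nearest row outside, with 14 and 2. In the reporter library alone 38 members had 20 counts or more and in the other 31, so the sum admitted some genes mainly through the library where they were higher. All 42 genes overlapped their locus in the RefSeq table of GRCh38.p14, and 26 had identical bounds there. Their listed lengths ran from 123 to 272 bases with a median of 135.

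H/ACA snoRNAs fold into hairpins joined by a hinge that carries the H box, and end in a tail that carries the letters ACA. With dyskerin, NHP2, NOP10 and GAR1 they form the particles that convert uridines of ribosomal RNA into pseudouridine, each snoRNA pairing with the bases around its target. Most human members are cut out of introns of other genes, often genes of the translation machinery. They are nuclear and not translated, so reads that come from them in a ribosome profiling library are not ribosome footprints on an mRNA. Whether the reads assigned to these genes came from whole snoRNAs, their fragments, the host intron or an overlapping gene was not tested.

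The libraries came from HEK293T, an established human embryonic kidney cell line, and were made by ribosome profiling, in which RNA fragments protected from nuclease are sequenced. Both cultures received a plasmid for TetRS, a synthetase based on chPylRS, that also held 12 U6-CM15CGA tRNA cassettes, and both were kept with the compound TetBu. They grew in 15 cm dishes for 30 h of expression and were treated with cycloheximide at 0.1 mg/mL for 1 min before collection. The first culture also received the reporter plasmid pEGFP-mCherry-T2A-EGFP-151TCG, and the second did not, so the group without it is no untransfected control. Each group was 1 library, with 2519301 counts in the reporter library and 3151403 in the other. There is thus no replicate check, no p-value is given, and every difference is one between these libraries. Intervals are exact at 95% for independent reads and cover counting error only. Reads copied by PCR are not independent molecules, so the intervals can be too narrow. In such bulk samples, fewer cells that hold an RNA and less of it per cell cannot be told apart. Of 5 genes that HEK293 cells are known to express, all had counts (188 in the library with reporter and 118 in that lacking it). The 5 leukocyte markers summed to 5 and 20, with PTPRC at 0 in both and CORO1A at 1 and 14. The 5 fibroblast markers summed to 38 and 64. Some genes went against the sum of their list: KRT8 had 3 and 4 counts, PAX2 2 and 4, CD14 3 and 0, LYZ 1 and 0 and ACTA2 23 and 9. The erythroid and serum markers HBA1 and HBA2 were at 0 in both libraries, HBB had 0 and 3 counts and ALB 0 and 13. The part of these differences in the snoRNA values was not tested.

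The tables used here hold H/ACA stretches only where an annotated miRNA hairpin lies inside a snoRNA gene, which was so for 5 of the 213 rows. SNORA84 was the only member among them, with 22 counts in the reporter library and 7 in the other. Among them, 3 stretches reach the tail of the snoRNA, and they are shown because they carry the box that names the class. The capitals mark the letters ACA that stand 3 bases before the annotated end of the snoRNA gene, on the snoRNA's own strand. The SNORA84 stretch covers 65.4% of the gene.
SNORA84, from MIR3651, chr9:92292461-92292547, minus strand: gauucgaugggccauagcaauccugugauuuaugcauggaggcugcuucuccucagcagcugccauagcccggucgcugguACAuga
SNORA36B, from MIR664A, chr1:220200546-220200619, minus strand: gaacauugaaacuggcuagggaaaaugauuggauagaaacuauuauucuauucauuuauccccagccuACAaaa
SNORA36A, from MIR664B, chrX:154768596-154768656, plus strand: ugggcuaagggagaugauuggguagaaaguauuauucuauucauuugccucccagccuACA
All 3 are RefSeq sequences of GRCh38.p14, and the last ends 3 bases short of the snoRNA gene. Among all 1562 hairpins of that table, 28 (1.79%) have ACA at the same distance from their own end. SNORA36A and SNORA36B, both guides to 18S rRNA, were listed at 0 in both libraries, as were MIR3651, MIR664A and MIR664B. A count of 0 allows up to 3 counts, or 0.000119% of the library with the reporter and 9.52e-05% of the other.

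Together the 42 genes held 19187 counts with the reporter, 0.762% of that library (0.751 to 0.772%). Without it they held 15068, or 0.478% (0.471 to 0.486%). Within the snoRNA biotype their share was alike, at 34.9% (34.5 to 35.3%) and 34.1% (33.7 to 34.5%). A few genes made up most of these counts. SNORA79B, SNORA3B, SNORA31 and SNORA66 took 54.9% of the members' counts with the reporter and 60.2% without it, while 17 members had fewer than 100 counts over both libraries. Per length, the authors' RPKM ran from 26.4 to 7402 with the reporter and from 5.32 to 9053 without it. The order of the members by count was nearly the same in both libraries, with a Spearman correlation of 0.95 across 42 genes that share these libraries.

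**Figure D1:**
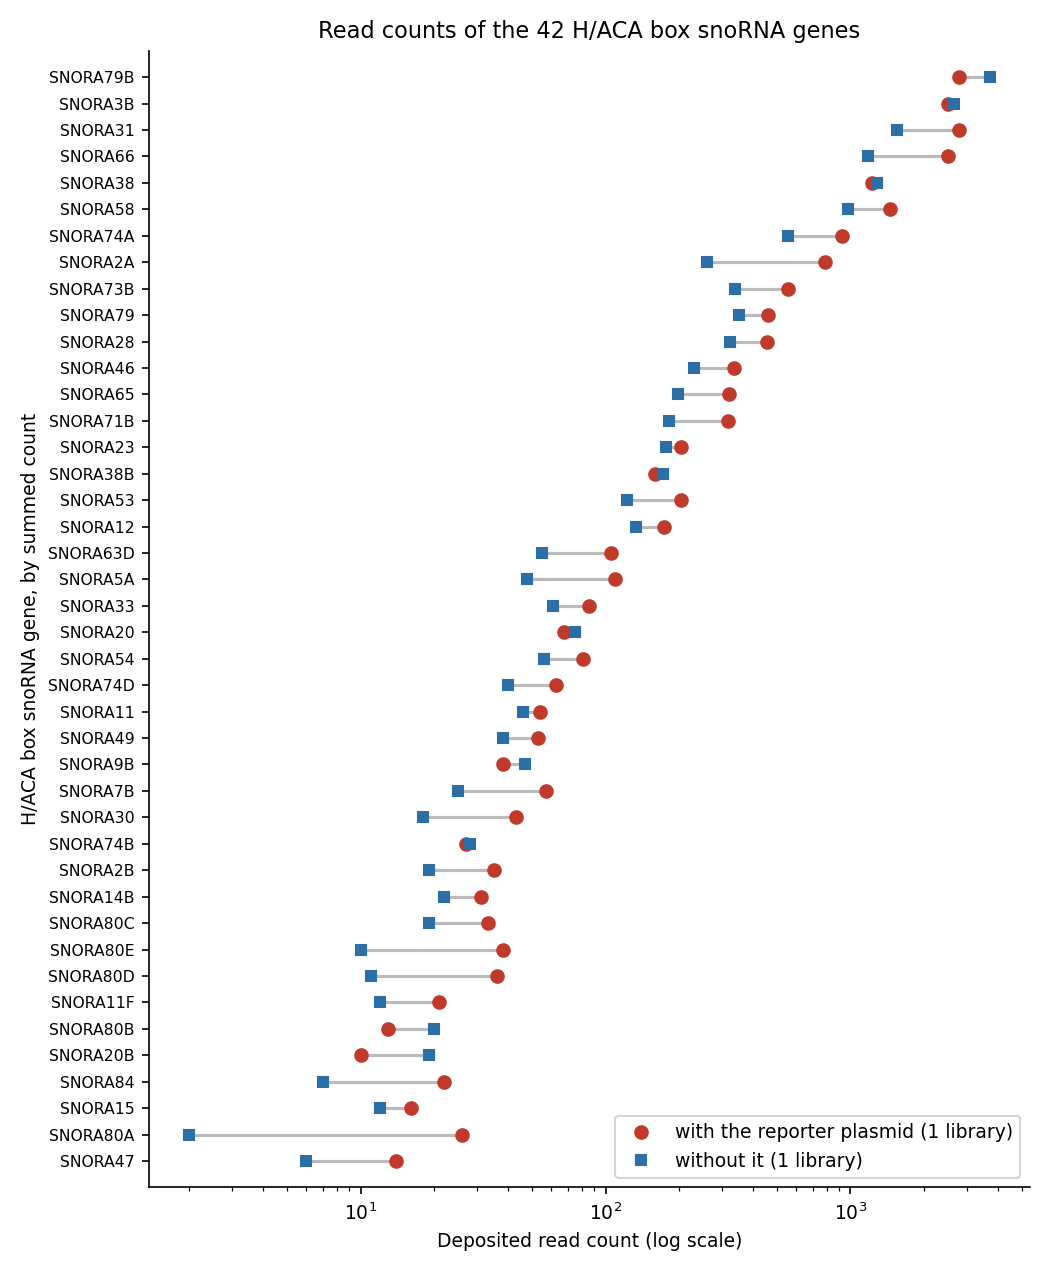
Deposited read counts of the 42 H/ACA box snoRNA genes (horizontal log axis), ordered by summed count; circles are the library with the reporter plasmid and squares the one without it, joined by a line. For 33 genes the circle lies to the right of the square, although the library with the reporter held fewer counts in all.

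Most H/ACA snoRNAs had more counts with the reporter, and the few clear exceptions were among the most counted. In raw counts 33 members were higher with the reporter and 9 lower. On the scale of edgeR's TMM factors the median log2 ratio, with over without the reporter, was 0.48 with quartiles at 0.14 and 0.79, against 0.04 over all rows with 20 counts or more. The protein-coding genes with at least 100 counts had a median of 0.11, and members are set against this coding median because the choice of scale does not move that difference. Relative to it the H/ACA median was 0.37. The interval lay above the coding median for 19 members (45.2%) and below it for 4 (9.52%), against 9.71% and 14.7% of all 7023 rows with 20 counts or more. Pooled over members the log2 ratio was 0.22 (0.19 to 0.25), lower than the median, with SNORA79B and SNORA3B carrying many of the counts. Without SNORA79B the pooled value was 0.40.

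The scale between the libraries bears on every ratio against 0. Scaling by total counts moves all log2 ratios by 0.46, and the plasmid rows took 11.99% of the library with the reporter against 1.91% of the other, and miRNA rows 12.4% against 30.4%. The part of either in the snoRNA ratios was not tested. At least 2-fold higher, with an interval that excludes 0, were 8 of the 42 members, where 6.83% of all rows with 20 counts or more were called higher and 7.38% lower. No member was called lower by this rule, and 3 (7.14%, against 11.8% of all rows) had an interval wholly below 0. Under total counts 20 members were at least 2-fold higher, against 19.9% of all rows.

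**Figure D2:**
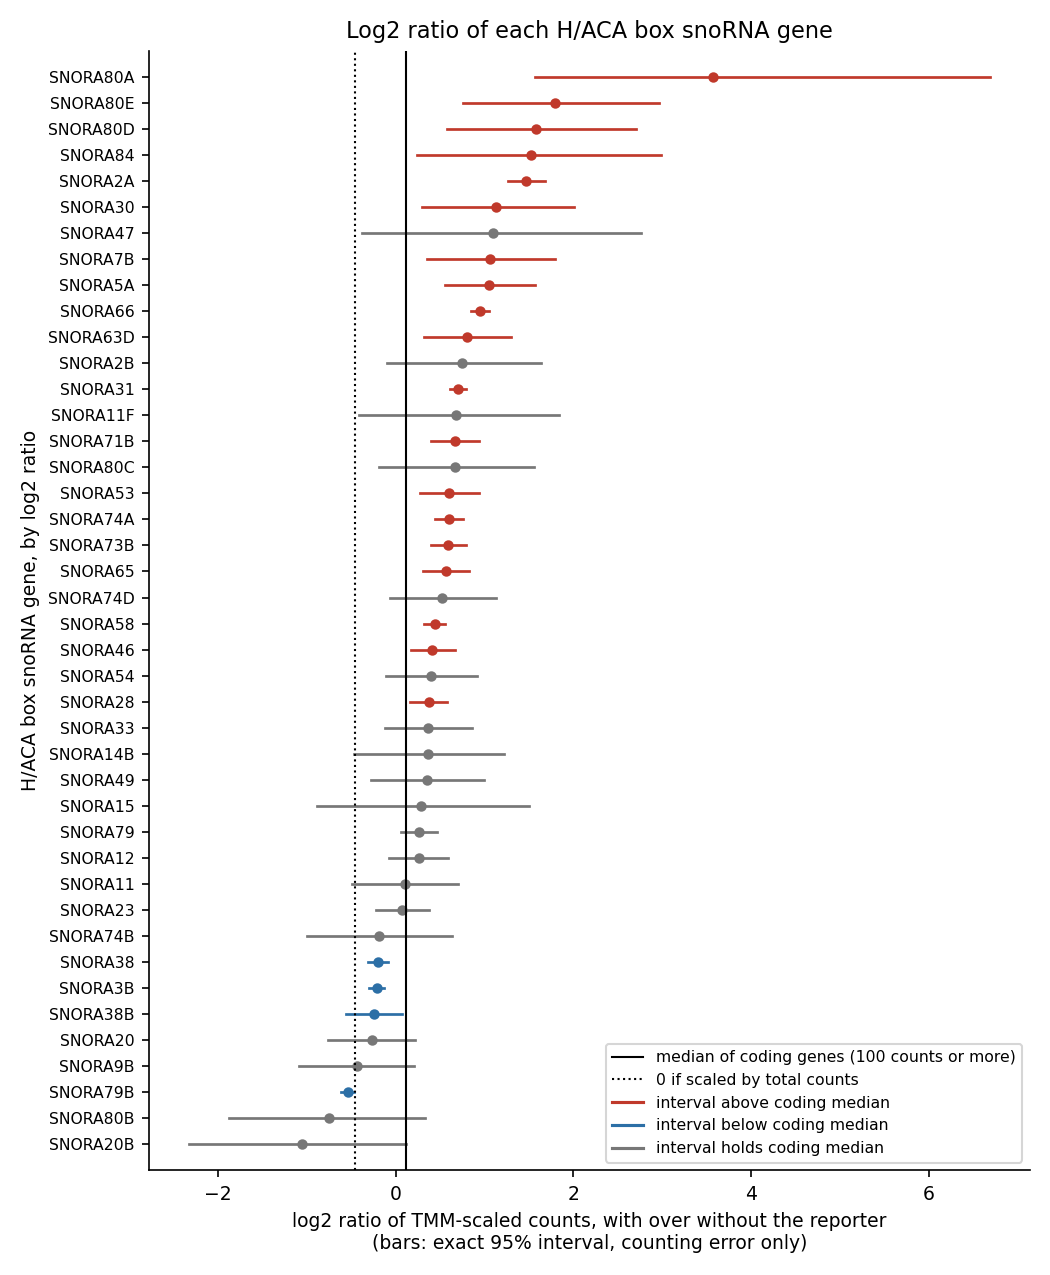
Log2 ratio of TMM-scaled counts, with over without the reporter (horizontal axis), for each of the 42 genes, with exact 95% intervals; the solid line is the median of coding genes at 0.11 and the dotted line is where 0 would lie under total counts. Intervals of 19 genes lie above the solid line and those of SNORA38, SNORA3B, SNORA38B and SNORA79B below it.

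The other class of snoRNAs, the C/D box genes that guide methylation of ribosomal RNA, had a similar median. Their 49 genes with 20 counts or more had a median log2 ratio of 0.45, so that the H/ACA median exceeded it by 0.03. Of these 49 genes, 25 (51.0%) had an interval above the coding median and 8 (16.3%) below it. The 10 scaRNA genes, which guide modification of spliceosomal RNAs in Cajal bodies, had a median of 0.22. Annotated miRNA genes lay on the other side, with a median of -0.83 over 187 genes, below the coding median where both snoRNA classes lay above it. The spread among H/ACA members was wider than counting error gives. For the 8 members with 1000 counts or more the SD of the log2 ratios was 0.68 against a counting error of 0.06, and for the 12 such C/D genes it was 0.59 against 0.06. The 50 such coding genes also exceeded it, with 0.42 against 0.07, so spread beyond counting error was not particular to snoRNAs.

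**Figure D3:**
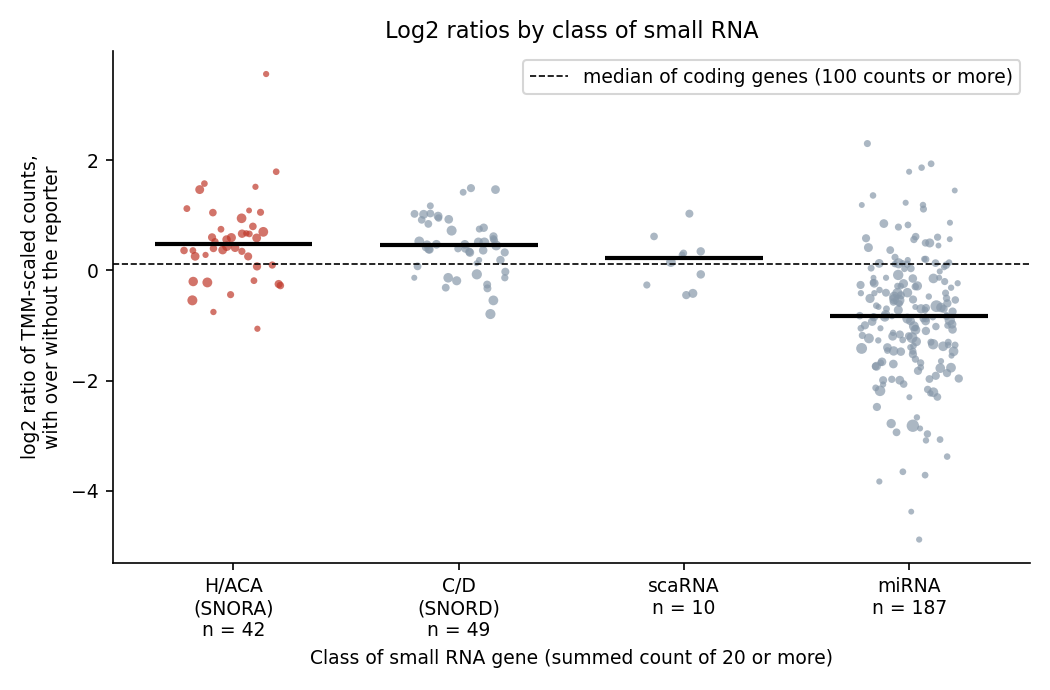
Log2 ratios of TMM-scaled counts, with over without the reporter, for genes of 4 classes of small RNA with 20 counts or more; each point is a gene, larger for more counts, the thick bars are medians and the dashed line is the median of coding genes. The bars of H/ACA and C/D snoRNAs lie at 0.48 and 0.45, that of miRNA genes at -0.83.

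Among the members assigned as guides to 18S rRNA, SNORA66 showed the largest difference at high counts. SNORA66, within the ribosomal protein gene RPL5 (chromosome 1, 92840719 to 92840851), had 2501 counts in the library with reporter and 1183 in that lacking it. Its log2 ratio was 0.95 (0.85 to 1.05), just under 2-fold. SNORA28, in the initiation factor gene EIF5, had 458 and 323 counts (0.37, 0.16 to 0.58). SNORA46, in CNOT1, which encodes the scaffold of the CCR4-NOT deadenylase, had 334 and 229 (0.41, 0.17 to 0.66). SNORA71B, in the noncoding host SNHG17, had 317 and 182 (0.67, 0.40 to 0.94), and its listed gene is the longest of all and extends beyond the RefSeq gene on both sides. These 4 had intervals above the coding median. SNORA20 had 68 and 75 counts, SNORA20B 10 and 19 and SNORA14B 31 and 22, with intervals that held the coding median. The 7 assigned 18S guides had a median log2 ratio of 0.37.

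The 8 members assigned as guides to 28S rRNA had a median of 0.54. SNORA31, within TPT1, which encodes translationally controlled tumour protein (chromosome 13, 45337480 to 45337609), had 2765 counts in the reporter library and 1551 in the other (0.70, 0.61 to 0.79). SNORA74A, the U19 snoRNA of the noncoding host SNHG4, had 925 and 558 (0.60, 0.44 to 0.75). SNORA65, in the ribosomal protein gene RPL12, had 319 and 197 (0.56, 0.30 to 0.83). SNORA7B had 57 and 25 (1.06, 0.35 to 1.80). Those 4 had intervals above the coding median. SNORA23 with 203 and 176 counts, SNORA54 with 81 and 56, SNORA74D with 63 and 40 and SNORA74B with 27 and 28 were not separated from it. SNORA73B, the U17 snoRNA that acts in 18S rRNA processing and is not known to guide a pseudouridine, had 558 and 338 counts (0.59, 0.39 to 0.79). The 26 members that the target list used here left unassigned had a median of 0.52 and held both ends of the range among well counted genes. Unassigned does not mean that no target is known, so the 18S and 28S medians cover the listed guides only. The differences between these medians were not tested.

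The most counted member went the other way. SNORA79B, within CCNB1IP1 (chromosome 14, 20323179 to 20323326), had 2786 counts in the library with reporter and 3702 in that lacking it, a log2 ratio of -0.54 (-0.61 to -0.47). SNORA3B, in the ribosomal protein gene RPL27A, had 2490 and 2641 (-0.22, -0.30 to -0.14), and SNORA38, in PRRC2A, 1221 and 1280 (-0.20, -0.31 to -0.09). SNORA38B, in the nucleolar protein gene NOL11, had 159 and 172 (-0.25, -0.57 to 0.07). These were the 4 members, of 11 below the coding median, whose interval lay wholly below it, and under total counts SNORA3B, SNORA38 and SNORA38B turned positive while SNORA79B stayed at -0.09. Setting genes against each other needs no scale. The pairs given here join genes whose ratios lay on opposite sides of the coding median, so their differences are no separate support. There were 99.2 counts of SNORA31 per 100 of SNORA79B in the reporter library and 41.9 in the other, a log2 difference of 1.24 (1.13 to 1.36, Wald interval). For SNORA66 against SNORA3B, both from ribosomal protein genes, the figures were 100.4 and 44.8 (1.16, 1.04 to 1.29).

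SNORA2A showed the largest difference among members with 1000 counts or more. It lies in KANSL2, a subunit gene of the NSL histone acetyltransferase complex (chromosome 12, 48656648 to 48656782), and had 786 counts in the library with reporter and 259 in that lacking it, a log2 ratio of 1.47 (1.26 to 1.68). Per 100 counts of SNORA79B it had 28.2 in the reporter library and 6.996 in the other, a log2 difference of 2.01 (1.80 to 2.23). This pair too joins genes from opposite sides of the coding median. SNORA58, in the mitochondrial ribosomal protein gene MRPL3, had 1448 and 974 (0.44, 0.32 to 0.56), and SNORA79, in the TFIIA subunit gene GTF2A1, 461 and 352 (0.26, 0.05 to 0.46). SNORA53 had 203 and 122 counts and SNORA63D 105 and 55, both with intervals above the coding median. SNORA12 with 174 and 133, SNORA33 with 86 and 61, SNORA11 with 54 and 46, SNORA49 with 53 and 38, SNORA9B with 38 and 47 and SNORA15 with 16 and 12 were not separated from it.

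The 8 members called higher were, besides SNORA2A, mostly thinly counted. SNORA5A, in TBRG4, had 109 counts in the reporter library and 48 in the other (1.05, 0.55 to 1.57). SNORA30, in SRCAP, had 43 and 18 (1.12, 0.30 to 2.01), and SNORA84, in the isoleucyl-tRNA synthetase gene IARS1, 22 and 7 (1.52, 0.24 to 2.99). The others were SNORA7B and 3 members of the SNORA80 family. Of the 17 members with 20 to 99 counts, 6 were called, against 7.47% of coding genes in that range. Of the 25 with 100 counts or more, 2 were, against 2.83% of such coding genes. At least 10 counts in each library, asked for after seeing the data, left 39 members and 6 of the calls.

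The 5 genes named SNORA80 lie on different chromosomes and did not have like ratios. SNORA80A, in the ribosome biogenesis gene URB1, had 26 counts in the library with reporter and 2 in that lacking it, an 11.9-fold ratio with an interval of 2.97 to 103. SNORA80E had 38 and 10 counts (log2 ratio 1.79, 0.76 to 2.96) and SNORA80D 36 and 11 (1.58, 0.57 to 2.70). SNORA80C had 33 and 19 (0.66, -0.19 to 1.56), while SNORA80B, in the ornithine decarboxylase gene ODC1, had 13 and 20 (-0.75, -1.88 to 0.33). SNORA80B was thus the only one of the 5 with fewer counts with the reporter, and the log2 difference of SNORA80E to it was 2.55 (1.12 to 3.97). Summed over the 5 genes there were 146 and 62 counts (1.10, 0.67 to 1.56). Where genes of a family are alike in sequence the division of reads among them is uncertain, and the counts of these 5 are low.

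In the other 6 families with several members the log2 ratios spanned 0.05 to 0.80, against 4.32 in SNORA80. SNORA80 has more members, at low counts, and both can widen a range, so the families are not compared further. Within SNORA80, SNORA80E and SNORA80D differed by 0.22 (-1.18 to 1.62). SNORA38 and SNORA38B differed by 0.05 (-0.29 to 0.38) although they lie on different chromosomes, and SNORA74A and SNORA74D, both within SNHG4, by 0.07 (-0.52 to 0.67). SNORA2A exceeded SNORA2B, with 35 and 19 counts from the same host, by 0.72 (-0.11 to 1.55). SNORA11F had 21 and 12 counts, and its difference to SNORA11 also had an interval that held 0, as did that of SNORA20 to SNORA20B. SNORA79B lay 0.80 below SNORA79 (-1.01 to -0.59 for the difference). Over all 18 pairs within families the interval excluded 0 for 7, of which 5 were within SNORA80 and the others were SNORA79B with SNORA79 and SNORA74A with SNORA74B (0.78, 0.004 to 1.56). The share among pairs of unrelated genes was not computed, so the 7 are a description only.

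**Figure D4:**
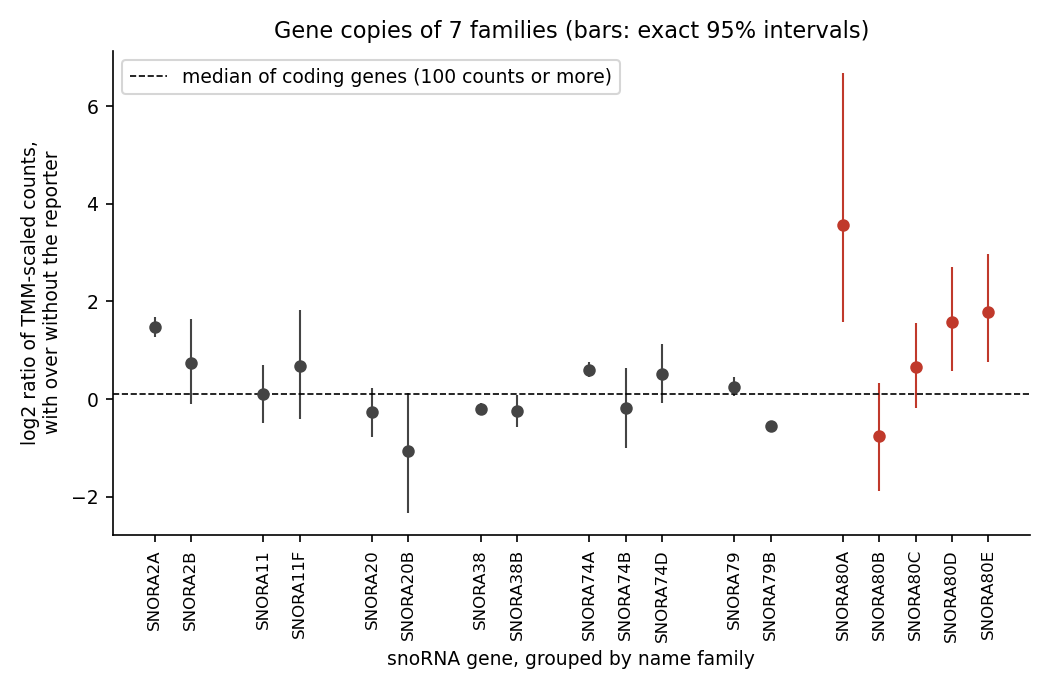
Log2 ratios of TMM-scaled counts, with over without the reporter (vertical axis), for the 18 members of 7 name families, with exact 95% intervals; the SNORA80 genes are in red and the dashed line is the median of coding genes. SNORA80A and SNORA80B, at 3.57 and -0.75, lie furthest apart within a family.

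An intronic snoRNA and its host are made from the same transcript, so their counts were set side by side. These are unlike measures, since counts of a coding host can be ribosome footprints on its mRNA and reads that come from a snoRNA are not. A coding or lncRNA gene held the whole snoRNA gene on the same strand for 37 members, 34 in coding genes and 3 in lncRNA genes, and 35 members had a host with 20 counts or more. SNORA80C, SNORA11F and SNORA20B lay only opposite a gene of the other strand, and SNORA63D and SNORA7B within rows listed as pseudogenes. Where several hosts were listed, the most counted was used. The ratio of the snoRNA was above that of its host for 21 of 35 members and below it for 14, with a median difference of 0.26. The interval of the difference excluded 0 for 18 of them, 15 with the snoRNA higher and 3 with it lower. No such share was computed for pairs of unrelated genes. The members' median lay 0.37 above the coding median, and coding genes also spread beyond counting error. These counts are therefore not a result about snoRNAs and their own hosts. The ratios of snoRNA and host did not rank alike, with a Spearman correlation of -0.26 across the 35 pairs, which share these libraries and in part their hosts.

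KANSL2 differed widely from its snoRNA, with 26 counts in the reporter library and 38 in the other while SNORA2A was 1.47 higher, a log2 difference of 2.15 (1.40 to 2.90). RPL5 had 360 and 335 counts, 0.98 (0.74 to 1.21) below its snoRNA SNORA66. TPT1 had 224 and 192, 0.61 (0.32 to 0.90) below SNORA31, and RPL12 had 51 and 78, 1.31 (0.74 to 1.88) below SNORA65. RPL27A with 571 and 576 counts did not differ from SNORA3B by more than counting error (-0.07, -0.26 to 0.11). The widest differences with the snoRNA above its host were at low counts, in URB1 with 16 and 44 counts (SNORA80A, 5.16), KHDC4 with 15 and 31 (SNORA80E, 2.97) and AIMP2 with 18 and 25 (SNORA80D, 2.18). IARS1 had 123 and 119 counts, and SNORA84 exceeded it by 1.60 (0.32 to 2.88).

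Among the 14 members below their host, the interval of the difference excluded 0 for SNORA73B and the pair in SNHG4. RCC1, the exchange factor of Ran, had 2271 counts in the library with reporter and 913 in that lacking it (1.18, 1.07 to 1.29), and SNORA73B lay 0.59 below it (-0.82 to -0.37 for the difference). This rests on the choice of host, since the noncoding gene SNHG3 also holds SNORA73B, and against its 31 and 20 counts the difference was 0.091 (-0.74 to 0.93). The neighbour SNORA73A, which the same gene holds, was listed at 0 in both libraries. SNHG4 had only 19 and 2 counts, with SNORA74A at -2.52 (-4.63 to -0.41) and SNORA74D at -2.59 (-4.77 to -0.41) against it. A row named MATR3 also holds both of these snoRNAs. That row was listed at 0 in both libraries, so no difference to it was computed, and other rows of this gene were not examined. In RPS12, which encodes a small-subunit protein, SNORA33 and the C/D snoRNA SNORD100, with 75 and 52 counts, were both higher relative to SNORD101, which had 1965 and 2613. The log2 difference of SNORA33 to SNORD101 was 0.91 (0.43 to 1.39), again for genes with ratios on opposite sides of the coding median. Per length the snoRNA was above its host in all 35 pairs in both libraries, with a median RPKM ratio of 105 in the reporter library and 71.1 in the other. Selection largely set that order, since 20 summed counts on genes with a median of 135 bases already give a high RPKM.

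**Figure D5:**
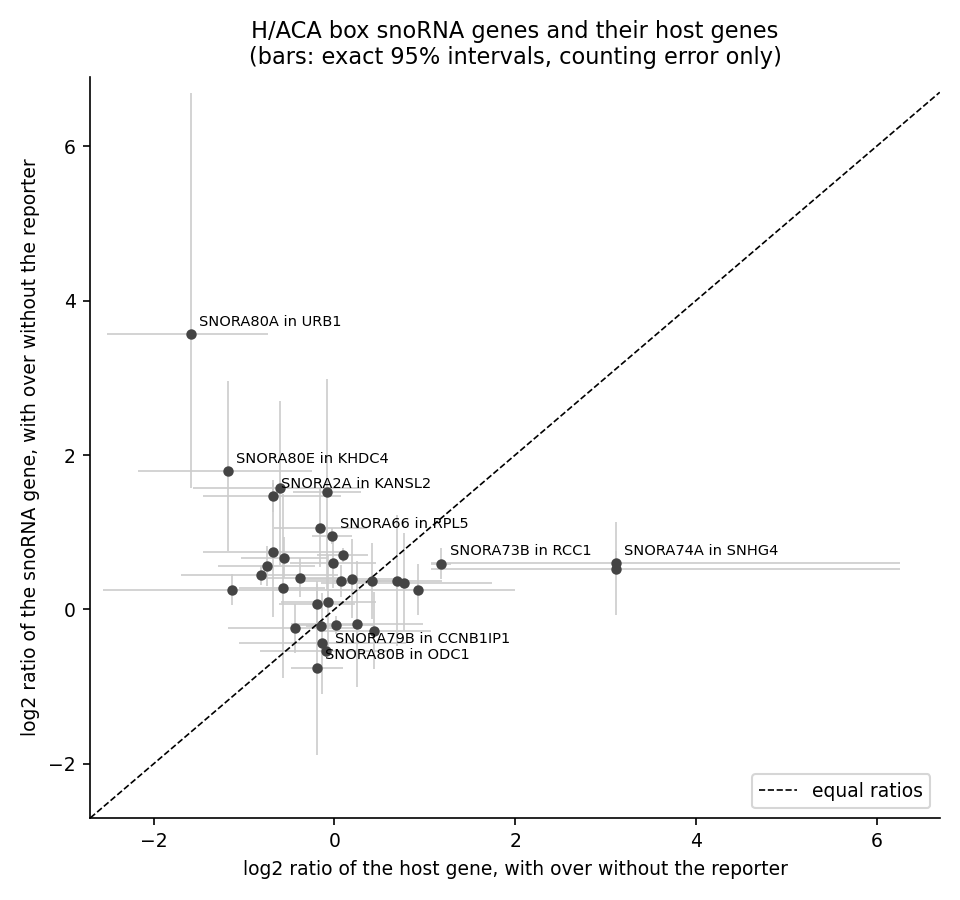
Log2 ratio of 35 H/ACA box snoRNA genes (vertical axis) against that of their host gene (horizontal axis), both with over without the reporter, with exact 95% intervals; the dashed line marks equal ratios. Of the points, 21 lie above the line and 14 below it, with SNORA80A in URB1 furthest above and the pair in SNHG4 furthest below.

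The proteins that bind H/ACA snoRNAs were read from counts on their mRNAs, and few were separated from the coding median. DKC1, which encodes dyskerin, the pseudouridine synthase, had 101 counts in the library with reporter and 56 in that lacking it (0.72, 0.23 to 1.22). NOP10 had 44 and 34 counts (0.24, -0.44 to 0.93), NHP2 22 and 30 (-0.58, -1.44 to 0.26) and GAR1 9 and 10 (-0.28, -1.76 to 1.17), with intervals that held 0 for these 3. Of the assembly factors, NAF1 had 19 and 16, SHQ1 27 and 22, RUVBL1 82 and 57 and RUVBL2 113 and 86, and none was separated from 0. Among nucleolar partners NOLC1 had 264 and 250 and TCOF1 62 and 35 (0.69, 0.07 to 1.33). Of the enzymes that act on the 3′ ends of snoRNAs, TENT4B, which adds tails, had 28 and 11 (1.22, 0.16 to 2.37), PARN, which trims them, 28 and 13 (0.97, -0.02 to 2.05), and TOE1 7 and 3. Over the list of 13, of which 11 had 20 counts or more, the pooled log2 ratio was 0.24 (0.09 to 0.39). With GAR1 and TOE1 included, though both had fewer than 20 counts, the ratio was above the coding median for 10 of the 13, TOE1 among them. Of all rows with 20 counts or more and counts in both libraries, 3212 of 7022 were above it. The interval lay above that median for 2 of the 13 and below it for none, against 9.71% and 14.7% of all rows with 20 counts or more. The count of intervals above it is thus near the background. The C/D proteins FBL, NOP56, NOP58 and SNU13 pooled to 0.31 (0.106 to 0.51). Both pooled intervals, of the H/ACA list and of these, held the coding median of 0.112.

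Most H/ACA genes of the table had no counts at all. Of the 213 rows, 155 were listed at 0 in both libraries and 16 had 1 to 19 counts. Names carried by several rows made up 73 rows, 27 of them SNORA70, and none of the members has such a name. Among the rows at 0, 86 have a name of their own, including SNORA13, SNORA24 and SNORA44, guides to 18S rRNA, and SNORA21, SNORA61, SNORA64, SNORA68 and SNORA81, guides to 28S rRNA. Members and rows at 0 sat side by side in the same hosts. SNORA71B had 499 counts in SNHG17 where SNORA71A, SNORA71C and SNORA71D were at 0, and SNORA3B had 5131 in RPL27A where SNORA3A was at 0. TERC, the H/ACA RNA of telomerase, was also at 0 in both libraries. A same-strand coding or lncRNA gene held 97 of the 155 rows at 0 and 37 of the 42 members. The sources used here do not say how reads in overlapping features or with several matches were counted, nor whether strand was used, so a row at 0 shows only what was counted.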

How the data were processed

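Ribosome profiling counts of 2 HEK293T libraries, 1 per group, were used as deposited, with groups taken from the sample titles. The submitters' processing notes name TopHat2 2.0.12, HTSeq 0.9.1 and the builds GRCh37 and hg19, without saying what each was used for. The deposited gene counts are whole numbers and were not normalized. Gene coordinates in the files overlapped RefSeq GRCh38.p14 loci for all members. The authors' RPKM values equalled count over listed gene length over a library size of 2873483 (with the reporter) or 2762965, which are DESeq2 size factors of the counts times the geometric mean of their totals.

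Counts were scaled by edgeR 4.0.16 TMM over all rows in R 4.3.3. Each log2 ratio has an exact Clopper-Pearson interval at 95%. Ratios between 2 genes have Wald intervals, which are rough at few counts. A call needed 2-fold and an interval excluding 0, at 20 summed counts or more. The call rule was tested on simulated counts that varied by counting error only. This does not show how it performs with the wider spread of these libraries. Alternatives were total counts, coding counts, size factors from DESeq2 1.42.0, RPKM plus 0.1, other minimums, folds and subsets. Python 3.11.15 with numpy 2.4.6, pandas 2.3.3 and scipy 1.17.1 was used.

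Members and lists, including the rRNA targets, which are textbook assignments, were chosen with earlier results of these data known. SNORA numbers outside the target list were left unassigned, whether or not a target is known. Named genes were the 12 most counted members, the 8 highest and 8 lowest by interval bound, members of families, those just inside the minimum or overlapping a miRNA gene, the 5 highest and 5 lowest against their host, and the protein list. Other members were named to complete a group after their values were seen.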

Additional observations from a re-analysis of the deposited data

How the results depend on the processing

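No paired analysis was possible because each group has 1 library and the labels give no replicate numbers. The median log2 ratio of the members, 0.48, was 0.94 under total counts and 1.09 under total counts without the plasmid rows, and lay between 0.37 and 0.56 in the other settings run. Its difference to the coding median lay between 0.30 and 0.41, and that to the C/D median between -0.06 and 0.07. The 8 members called higher became 20 under total counts, 24 under total counts without the plasmid rows, 4 at 50 summed counts or more, 2 at 100 or more, 15 at a 1.5-fold threshold, 2 at 3-fold and, chosen after seeing the data, 4 without families with several members. No setting called a member lower. The pooled log2 ratio of 0.22 was 0.29 with DESeq2 size factors, 0.67 with total counts, 0.83 with total counts without the plasmid rows, 0.18 with summed coding counts, 0.40 without SNORA79B and 0.52 without the 5 most counted members. The share of the library with the reporter, 0.762%, was 0.865% without the plasmid rows, 1.01% also without miRNA rows, and 34.9% of the snoRNA biotype. Without the reporter, 0.478% became 0.487%, 0.707% and 34.1%. The difference of SNORA73B to its host, -0.59 against RCC1, turned to 0.091 against SNHG3, a host compared after seeing the data. Depth limited the 17 members under 100 counts, whose intervals mostly held the coding median.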

Other observations

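The 16 rows named SNORA with 1 to 19 counts, which the minimum left out, held 65 counts in the reporter library and 32 in the other, a pooled log2 ratio of 0.89 (0.26 to 1.55). They include SNORA24B with 14 and 2 counts, SNORA37 with 10 and 0, SNORA77 with 6 and 8, and SNORA5C and SNORA2C with 5 and 8 and with 8 and 5. SNORA5C and SNORA2C lie in TBRG4 and KANSL2, the hosts of SNORA5A and SNORA2A. MIR1291, whose hairpin covers 54.7% of SNORA2C, was at 0 in both libraries, as was MIR1248, whose hairpin covers 57.9% of SNORA81.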
